A study of Mus musculus with 9 samples.

Results

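The genes described here are the coreceptors, adaptors and first kinases through which toll-like receptors signal. They are 10 genes chosen by name, of 18194 genes measured with exactly 1 gene symbol, and all 10 were on the array: the coreceptors Cd14 and Ly96, the adaptors Myd88, Tirap and Ticam1, the kinases Irak1, Irak2 and Irak3, the ubiquitin ligase Traf6 and the kinase partner Tab1. Toll-like receptors recognize microbial products and molecules set free from damaged tissue, and blood neutrophils and monocytes carry many of them. CD14 and MD-2, the product of Ly96, load lipopolysaccharide onto TLR4. Receptors then recruit MyD88, in part through TIRAP, or TRIF, the product of Ticam1. MyD88 assembles IRAK kinases, which pass the signal to TRAF6 and to the kinase TAK1 with its partner TAB1, and this chain ends in NF-κB and MAP kinase activity. IRAK-M, the product of Irak3, restrains it.

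Blood of 9 C57BL/6 mice aged 8 to 9 weeks was measured, 1 array per mouse. The 3 mice with polytrauma and hemorrhagic shock (PT + HS) received a head injury, a closed femoral fracture with soft tissue damage and a blunt chest trauma, and 1 h later were bled to an arterial pressure of 30 mmHg, kept there for 60 min and given 4 times the drawn volume as electrolyte solution over 30 min, with norepinephrine as needed. The 3 mice with polytrauma alone (PT) received the same injuries without bleeding, and both injured groups were sampled 4 h after it under continued sevoflurane anesthesia, with buprenorphine. The 3 control mice (Ctrl) underwent no procedure, and their blood was drawn once anesthesia had been induced, so that trauma, analgesia, instrumentation and hours of anesthesia cannot be told apart in a comparison with Ctrl. Whole blood entered the RNA tubes. All values below are log2 expression of 1 probe set per gene.

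A gene was taken as changed at the thresholds of the study, an unadjusted p under 0.05 (here from limma) and a change of at least 1.5-fold. In the fit to all 9 arrays with equal weight and only 1 mean per group, no member reached an adjusted p under 0.05 in limma. This held for all 10 members in all 4 comparisons, and the methods' t-test gave none either. Over all genes the share at that level was 0% between PT + HS and PT, 0.0055% between PT + HS and Ctrl, 0% between PT and Ctrl and 0.011% between both injured groups and Ctrl. At an unadjusted p under 0.05 there were 2 of 10 members between PT + HS and PT (2.87% of all genes), 3 between PT + HS and Ctrl (4.86%), 4 between PT and Ctrl (5.82%) and 3 between both injured groups and Ctrl (5.86%). PT replicate 2 stood apart, with correlations of 0.912 to 0.949 to the other arrays, whose lowest correlation among themselves was 0.961. The median SD of the 10 members was 0.318 in PT + HS, 0.382 in PT and 0.214 in Ctrl, against 0.208, 0.306 and 0.222 over all genes. The comparisons with Ctrl share the 3 Ctrl arrays.

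Against Ctrl the thresholds were passed by 3 members as higher in PT + HS, Cd14, Myd88 and Tirap, where 1.99% of all genes passed as higher. The same 3 passed as higher in PT, where 1.41% of all genes did, and Tab1 passed as lower in PT, where 2.26% did. Between PT + HS and PT only Tab1 passed, as higher in PT + HS, where 0.726% of all genes did. No other member passed as lower, where 0.396% of all genes did between PT + HS and PT, 1.29% between PT + HS and Ctrl and 1.6% between both injured groups and Ctrl. Over both injured groups against Ctrl the 3 genes Cd14, Myd88 and Tirap passed (1.65% of all genes passed as higher). Cd14, Myd88 and Tirap were also picked by the study on these very samples, so that their counts are not independent evidence of the direction. The median difference of the 10 members was 0.26 in PT + HS against Ctrl, 0.11 in PT against Ctrl and 0.20 in PT + HS against PT, where the medians over all genes were -0.014, -0.00025 and -0.0031. The last 2 of the members' medians depended on PT replicate 1, without which they were -0.057 and 0.42. All animals of a group lay above all of the other for 1 member between PT + HS and PT (3.61% of all genes), for 4 between PT + HS and Ctrl (6.55%), for 2 between PT and Ctrl (4.32%) and for 1 between both injured groups and Ctrl (1.52%), and below them for 1, 0, 1 and 0 members (3.56%, 6.68%, 5.12% and 1.62%). In RNA of whole blood, more cells of a type and more RNA per cell cannot be told apart.

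**Figure D1:**
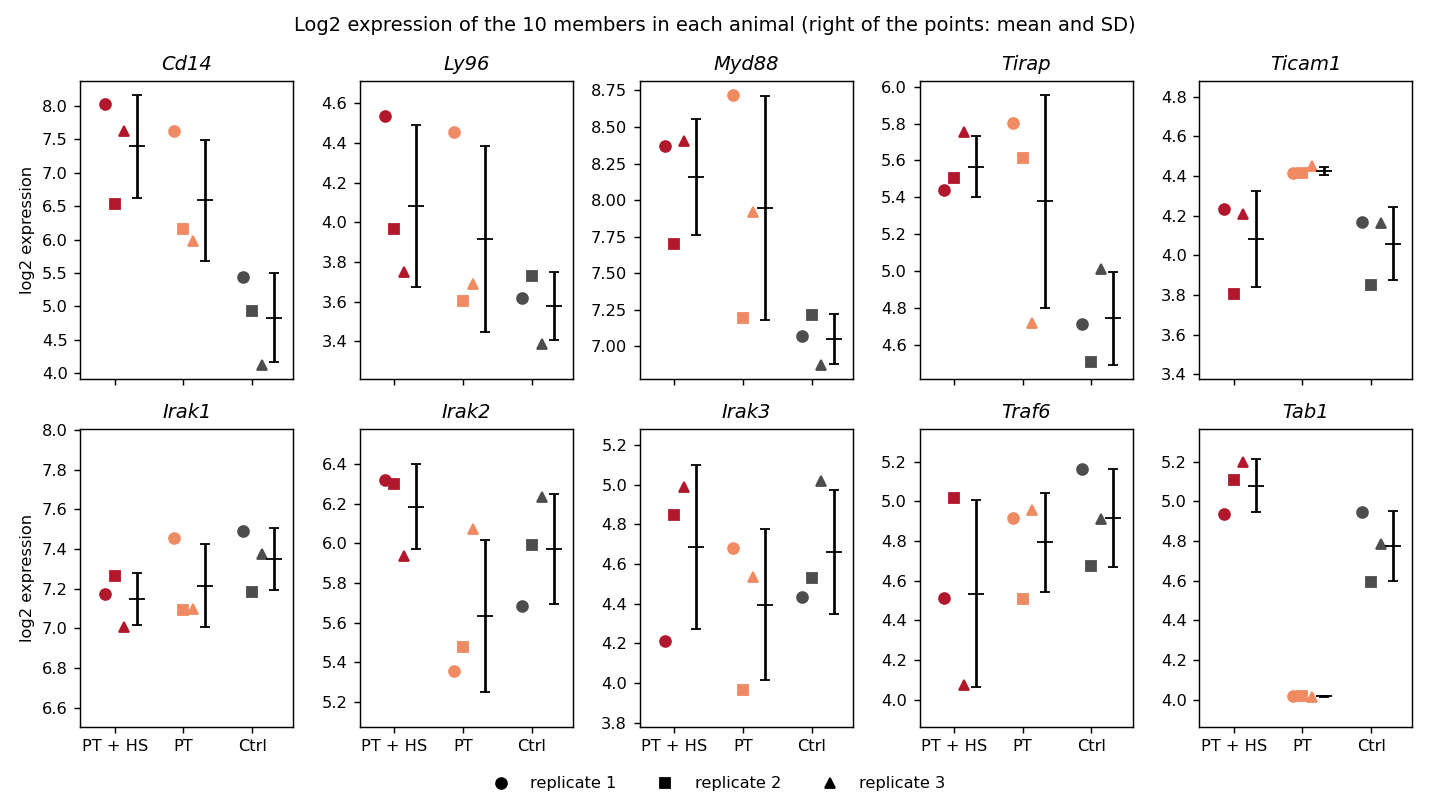
Log2 expression of the 10 members in each animal, with PT + HS, PT and Ctrl from left to right, 1 symbol shape per replicate number, and the mean and SD to the right of the points. Cd14 was above every Ctrl value in all 6 injured animals, and the 3 PT values of Tab1 fall together at 4.01 to 4.02.

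Cd14 (probe set 1417268_at), the surface and soluble receptor that hands lipopolysaccharide to TLR4, showed the largest difference from Ctrl among the members. It measured 8.03, 6.53 and 7.62 in the 3 PT + HS animals. In the PT animals it measured 7.63, 6.16 and 5.98, and in the Ctrl animals 5.44, 4.94 and 4.12. Every injured animal was therefore above every Ctrl animal, as for 1.52% of all genes, while PT replicate 1 lay within the PT + HS values. The difference from Ctrl was 2.56 in PT + HS (standard error 0.52, 5.89-fold, 95% interval 1.39 to 3.73, adjusted p = 0.304 from limma) and 1.75 in PT (standard error 0.52, 3.37-fold, 95% interval 0.58 to 2.92, adjusted p = 0.630). PT + HS exceeded PT by 0.81, with a 95% interval of -0.36 to 1.97. This last difference passed the thresholds without PT + HS replicate 2 (1.24) or without PT replicate 1 (1.33). With limma's array weights it was -0.022, and PT replicate 1, at 7.63, then makes up 86.9% of the PT mean. With the methods' t-test Cd14 did not pass between PT and Ctrl. Fitted to the arrays of PT + HS and Ctrl alone, Cd14 had an adjusted p of 0.0318 in limma, and over all 19 alternatives the adjusted p of that difference ranged from 0.0318 to 1.0.

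Ly96 (probe set 1449874_at) encodes MD-2, the soluble partner that binds lipopolysaccharide within the TLR4 complex. Its level was low, 4.54, 3.96 and 3.75 in PT + HS, 4.46, 3.61 and 3.69 in PT and 3.62, 3.73 and 3.39 in Ctrl, while the mean of a gene had a median of 4.29. The 3 PT + HS animals were all above the Ctrl animals (6.55% of all genes were), the nearest pair by a small gap, and the PT animals overlapped with Ctrl. The difference from Ctrl was 0.50 in PT + HS (95% interval -0.11 to 1.12) and 0.34 in PT (-0.27 to 0.95). Neither passed, and with array weights the second did (0.75). PT replicate 1 carried most of the PT difference and also had the highest Cd14 value of its group. Between PT + HS and PT the difference was 0.17 (-0.45 to 0.78).

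Myd88 (probe set 1419272_at), the adaptor shared by most toll-like receptors and the interleukin-1 receptor family, was higher than in Ctrl in both injured groups. It measured 8.37, 7.70 and 8.40 in PT + HS. The PT animals had 8.72, 7.19 and 7.92 and the Ctrl animals 7.07, 7.22 and 6.87. All PT + HS animals were above all Ctrl animals, whereas PT replicate 2 lay within the Ctrl range. The difference from Ctrl was 1.11 in PT + HS (standard error 0.35, 2.15-fold, adjusted p = 0.735 from limma) and 0.89 in PT (standard error 0.35, 1.85-fold, adjusted p = 0.806). The call in PT was lost with the methods' t-test and without any of 4 animals: PT replicate 1 (0.50), PT replicate 3 (0.90), Ctrl replicate 1 (0.90) or Ctrl replicate 3 (0.80). PT + HS and PT differed by 0.21 (95% interval -0.57 to 1.0).

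Tirap (probe set 1457676_at) encodes the bridging adaptor that brings MyD88 to TLR2 and TLR4 at the membrane. It measured 5.44, 5.51 and 5.75 in PT + HS, 5.80, 5.61 and 4.72 in PT and 4.72, 4.51 and 5.01 in Ctrl. The PT + HS animals lay above all Ctrl animals, and in PT replicates 1 and 2 did, while PT replicate 3 was at the Ctrl level. The difference from Ctrl was 0.82 in PT + HS (standard error 0.28, 1.77-fold, adjusted p = 0.814 from limma) and 0.63 in PT (standard error 0.28, 1.55-fold, adjusted p = 0.840). In PT the call was lost in 13 of 19 alternative settings, among them leaving out any of the PT + HS replicates, PT replicates 1 or 2 and Ctrl replicates 1 or 2, with differences of 0.42 to 0.63. In PT + HS it was lost without PT + HS replicate 3 (0.73) or Ctrl replicate 2 (0.70). A further probe set of Tirap, nearly as bright, had differences from Ctrl of 0.34 for PT + HS and 0.03 for PT, and with the mean of both probe sets the gene did not pass (0.58 and 0.33).

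Ticam1 (probe set 1454676_s_at), the adaptor TRIF of TLR3 and of internalized TLR4, passed in no comparison. It measured 4.24, 3.81 and 4.21 in PT + HS, 4.41, 4.41 and 4.45 in PT and 4.17, 3.85 and 4.16 in Ctrl. All PT values were above all others, by little. PT + HS differed from Ctrl by 0.02 (95% interval -0.37 to 0.42) and PT by 0.37 (-0.03 to 0.76), and PT + HS differed from PT by -0.34 (-0.74 to 0.05). The groups did not overlap in the last comparison, as for 3.56% of all genes.

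The 250 bases before the transcription start are shown for Myd88 and Tirap, the 2 of the 3 genes higher in both injured groups that have an entry in the RefSeq table used (GRCm38.p6). The table holds 7 of the 10 members, with no entry for Cd14, Ly96 and Tab1. The windows were searched on both strands for a pattern of NF-κB sites (GGG and CC with any 5 bases between), of STAT sites (TTCNNNGAA), of PU.1 sites (GAGGAAGT) and of C/EBP sites (TTGCNNAA), and matches, none of which overlap another motif, stand in capitals. The Myd88 window is chr9:119340019-119340268 and that of Tirap chr9:35199966-35200215, both on the minus strand.
Myd88: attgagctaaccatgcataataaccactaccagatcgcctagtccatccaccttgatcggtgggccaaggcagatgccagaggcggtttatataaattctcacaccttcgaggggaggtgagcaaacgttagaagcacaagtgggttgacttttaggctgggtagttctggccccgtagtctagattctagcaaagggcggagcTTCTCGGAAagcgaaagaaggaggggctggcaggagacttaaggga
Tirap: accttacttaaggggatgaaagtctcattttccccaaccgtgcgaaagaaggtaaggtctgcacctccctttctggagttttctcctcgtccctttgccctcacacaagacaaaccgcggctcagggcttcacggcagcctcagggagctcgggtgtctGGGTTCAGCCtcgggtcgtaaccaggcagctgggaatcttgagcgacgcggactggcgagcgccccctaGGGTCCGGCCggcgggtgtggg
Myd88 held 1 STAT pattern, TTCTCGGAA, which reads as a match on both strands and begins 46 bases before the start, and 7.02% of 32851 such windows of all genes held that pattern. Tirap held 2 NF-κB patterns, GGGTTCAGCC from base 91 and GGGTCCGGCC from base 22 before the start, a pattern loose enough to occur in 45.8% of all windows. The PU.1 and C/EBP patterns, found in 2.44% and 9.56% of all windows, were not in these 2 windows. Of the other windows, those of Ticam1, Irak1 and Traf6 held the NF-κB pattern and that of Irak2 did not. Irak3 has 2 listed starts and held it before the first only. Tirap and Irak1 also have 2 listed starts each, with the pattern before both, and for Tirap the window of the first is shown. A match is a run of letters and was not tested as a binding site.

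Irak1 and Irak2, the kinases that MyD88 assembles with IRAK4, showed no change past the thresholds. Irak1 (probe set 1438120_x_at) was well measured and nearly level, with 7.17, 7.26 and 7.01 in PT + HS, 7.46, 7.09 and 7.10 in PT and 7.49, 7.18 and 7.37 in Ctrl. Its difference from Ctrl was -0.20 in PT + HS (95% interval -0.59 to 0.19) and -0.13 in PT (-0.52 to 0.25). The other 3 probe sets of Irak1 had differences from Ctrl of -0.35 to -0.03 for PT + HS and -0.15 to 0.17 for PT, all below the thresholds. IRAK4 itself was not analysed here.

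Irak2 (probe set 1436507_at), which sustains signaling after IRAK1 in mouse macrophages, measured 6.32, 6.30 and 5.94 in PT + HS, 5.36, 5.48 and 6.07 in PT and 5.69, 5.99 and 6.23 in Ctrl. PT replicates 1 and 2 held the lowest of the 9 values, and PT replicate 3 lay among the others. PT + HS exceeded PT by 0.55 (standard error 0.24, 95% interval 0.02 to 1.07, adjusted p = 1.0 from limma), which is 1.46-fold and just short of 1.5-fold. It was past both thresholds without PT + HS replicate 3 (0.67), without PT replicate 3 (0.77) or with array weights (0.76). Against Ctrl the difference was 0.21 in PT + HS (-0.31 to 0.74) and -0.34 in PT (-0.86 to 0.19).

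Irak3 (probe set 1435040_at), the restraining member of the family and known mainly from monocytes and macrophages, passed in no comparison. It measured 4.21, 4.85 and 4.99 in PT + HS, 4.68, 3.96 and 4.54 in PT and 4.44, 4.53 and 5.02 in Ctrl, with overlap between all groups. The difference from Ctrl was 0.02 in PT + HS (95% interval -0.59 to 0.63) and -0.27 in PT (-0.88 to 0.34), and PT + HS exceeded PT by 0.29 (-0.32 to 0.90). A second, weaker probe set gave 0.12, 0.04 and 0.08 for the same 3 comparisons. The interval of PT + HS against Ctrl still holds changes of 1.5-fold in either direction, and the number of arrays limits the precision.

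Traf6 (probe set 1435350_at), the ubiquitin ligase downstream of the IRAK kinases, did not pass with the probe set of the highest mean. That probe set measured 4.51, 5.01 and 4.08 in PT + HS, 4.92, 4.51 and 4.96 in PT and 5.16, 4.67 and 4.91 in Ctrl, with overlap throughout. Its difference from Ctrl was -0.38 for PT + HS (95% interval -0.95 to 0.19) and, for PT, -0.12 (-0.69 to 0.45), and PT + HS differed from PT by -0.26 (-0.83 to 0.31). Without PT + HS replicate 2 the first difference was -0.62 and past the thresholds. The array carries 5 probe sets of Traf6, and the second brightest of them, 1421376_at, pointed the other way. It measured 4.57, 4.72 and 4.16 in PT + HS, 3.72, 4.31 and 3.53 in PT and 3.74, 3.99 and 3.94 in Ctrl, and its difference was 0.63 between PT + HS and PT and 0.60 between PT + HS and Ctrl, both past the thresholds in the fit to every probe set. The other 3 probe sets had means of 2.74 to 2.90 and differences of -0.12 to 0.27. The direction of Traf6 is therefore not settled by these arrays.

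Tab1 (probe set 1426898_at), the partner that activates TAK1, was the only member past the thresholds between the injured groups. It measured 4.93, 5.11 and 5.20 in PT + HS, 4.02, 4.02 and 4.01 in PT and 4.95, 4.59 and 4.78 in Ctrl. Every PT animal was below every other animal, and PT + HS overlapped with Ctrl by 1 animal, Ctrl replicate 1. PT + HS exceeded PT by 1.06 (standard error 0.16, 2.09-fold, 95% interval 0.71 to 1.42, adjusted p = 1.0 from limma), which had the smallest unadjusted p among the 18194 genes in this comparison. The SD over the 3 PT animals was only 0.00268, and 4 genes had an SD in PT that small, Tab1 included. The PT mean of 4.02 was under 4.29, the median over the means of all genes. The part of this spread in the rank was not tested. PT was lower than Ctrl by 1.69-fold, a difference of -0.76 (standard error 0.16, adjusted p = 0.389), and PT + HS differed from Ctrl by 0.31 (95% interval -0.05 to 0.66). The calls held without any 1 animal, with differences of 1.0 to 1.14 and of -0.85 to -0.67. They rest on the brighter probe set, 1426898_at. The other probe set had a mean of 2.44 and differed by 0.01 between PT + HS and PT and by -0.14 between PT and Ctrl, and with the mean of both the differences were 0.53 and -0.45 and under 1.5-fold.

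**Figure D2:**
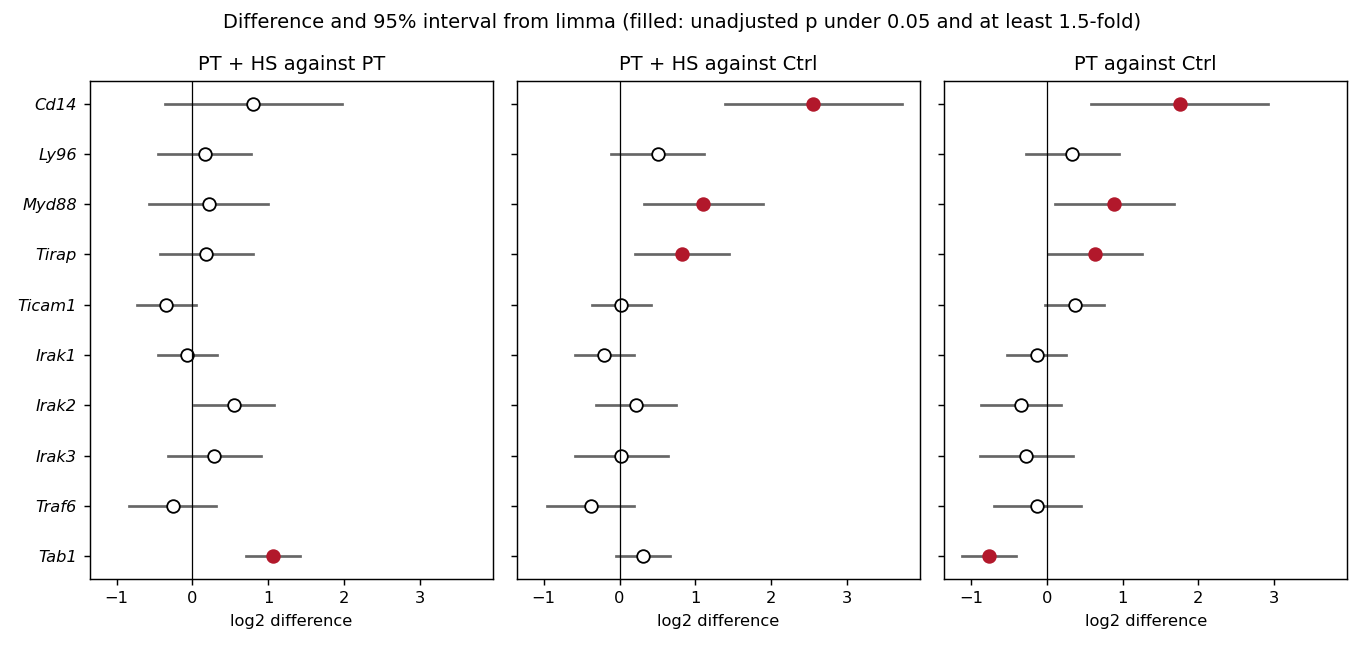
Log2 difference of each member in the 3 comparisons (columns), as the estimate from limma with its 95% interval, filled where the thresholds were passed. Against Ctrl the filled points to the right are Cd14, Myd88 and Tirap, and Tab1 lies at -0.76 in PT and at 1.06 between PT + HS and PT.

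**Figure D3:**
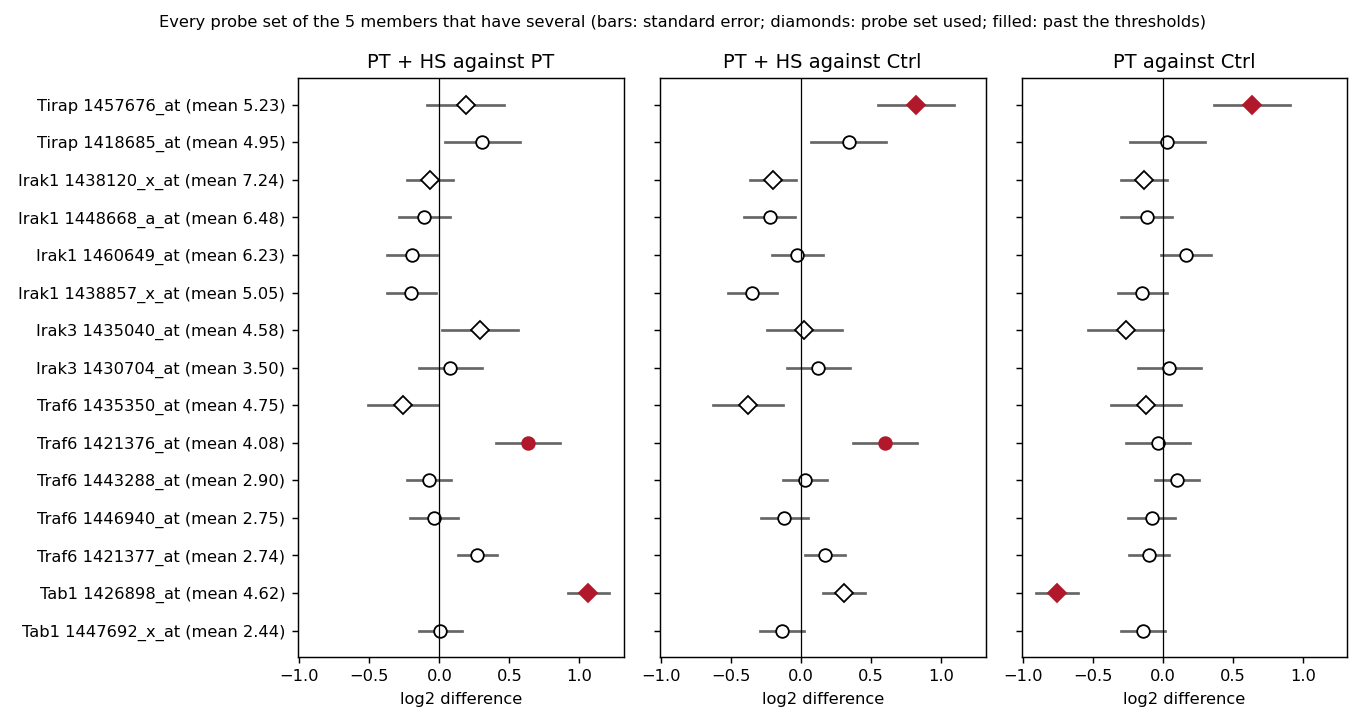
Log2 difference with its standard error for every probe set of Tirap, Irak1, Irak3, Traf6 and Tab1, the 5 members with more than 1, with the mean log2 level beside each name and diamonds for the probe set used. The 4 probe sets of Irak1 lie close together. The brighter probe set of Tab1 stands apart from the other one. That of Tirap does so against Ctrl only, with 0.19 and 0.31 for its probe sets between PT + HS and PT. Traf6 1421376_at lies at 0.63 between PT + HS and PT and at 0.60 between PT + HS and Ctrl.

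Looked at animal by animal, 7, 8 and 7 of the 10 members were above the Ctrl mean in PT + HS replicates 1, 2 and 3, and 8, 5 and 6 in PT replicates 1, 2 and 3. Above the highest Ctrl value were 6, 6 and 6 members in PT + HS and 5, 3 and 3 in PT. Below the lowest Ctrl value were 3, 1 and 2 members in PT + HS and 2, 5 and 2 in PT. The shares of all genes outside the Ctrl range were not counted for single animals. These counts are therefore a description and no result about the members. PT replicate 1 resembled the PT + HS animals in Cd14, Ly96, Myd88 and Tirap but not in Tab1, where all 3 PT animals were low, nor in Irak2, where PT replicates 1 and 2 were low and PT replicate 3 was not. PT replicate 2 had the most members below the lowest Ctrl value, 5. The median of the members relative to the Ctrl mean was 0.25 to 0.33 in the PT + HS animals and -0.11 to 0.23 in the PT animals.

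Of the other genes of the pathway, 64 of 74 listed were measured. Against Ctrl 7 of the 64 passed as higher and 1 as lower in PT + HS (1.99% and 1.29% of all genes). In PT 7 passed as higher and 4 as lower (1.41% and 2.26%). Between PT + HS and PT 1 passed, as higher (0.726% of all genes), and after adjustment limma left none of the 64 at 0.05. Tlr4, Tlr6, Tlr13, S100a8, S100a9, Ccl3 and Nfkbia, which are among these genes, were also named by the study on these samples. The counts are therefore not independent evidence of the direction. The medians of the 64 genes were 0.06, 0.07 and 0.10 for PT + HS against Ctrl, PT against Ctrl and PT + HS against PT.

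Among the receptors that use these coreceptors and adaptors, 4 of 11 passed as higher than in Ctrl in both injured groups and none passed as lower. Over all genes 1.99% passed as higher in PT + HS and 1.41% in PT. Tlr1, which pairs with TLR2, had differences of -1.03 for PT + HS (95% interval -2.27 to 0.20), with every PT + HS animal below every Ctrl animal, and -0.86 for PT (-2.10 to 0.38), and neither passed. Tlr2, the receptor of bacterial lipoproteins, had a difference of 1.59 for PT + HS and 1.67 for PT (standard error 0.41), and Tlr13, in mice a sensor of bacterial ribosomal RNA, one of 1.64 and 0.93 (standard error 0.34). Tlr4, the receptor that CD14 and MD-2 serve, had 4.67, 4.40 and 4.99 in PT + HS, 5.10, 3.93 and 4.57 in PT and 4.15, 3.28 and 3.90 in Ctrl. It differed from Ctrl by 0.91 and 0.76 (standard error 0.32), and Tlr6, a partner of TLR2, by 0.98 and 0.70 (standard error 0.29). Of the 5 measured ligands of damaged tissue, S100a8 and S100a9, abundant alarmins of neutrophils that act on TLR4, were higher in both injured groups, S100a8 with 1.22 for PT + HS and 1.07 for PT and S100a9 with 1.51 and 1.23, and the chaperone Hspd1 was lower in PT (-0.63).

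Among the other parts of the pathway few genes passed. Of the 8 other coreceptors and chaperones Cd180, a relative of TLR4 on B cells, was lower than in Ctrl (-0.68 for PT + HS, -1.05 for PT), and Unc93b1, which escorts receptors of nucleic acids to endosomes, was lower in PT (-0.67). None of 11 other kinases and ubiquitin enzymes passed in any comparison. Map3k7, which encodes TAK1 itself, had differences from Ctrl of -0.02 for PT + HS and 0.09 for PT. Tab2 and Tab3, the other partners of TAK1, differed between PT + HS and PT by 0.29 and -0.50 (standard error 0.28 each), where Tab1 differed by 1.06. Of 7 other inhibitors 1 passed, Rnf216, a ubiquitin ligase that limits toll-like receptors, with -0.62 in PT. None of 3 other adaptors and 5 transcription factors passed. Of 14 target genes Socs3, a feedback inhibitor of cytokine receptors, exceeded Ctrl by 2.62 for PT + HS and 2.51 for PT (standard error 0.51). The chemokine Ccl3 exceeded PT in the PT + HS animals by 0.59 (standard error 0.19). Its PT + HS values overlapped with Ctrl (difference 0.06). Every PT animal lay below every Ctrl animal for Ccl3 (difference -0.54, 1.45-fold and so not past the thresholds). All PT + HS animals were above all Ctrl animals for 4 of the 14 target genes and below them for 0 (6.55% and 6.68% of all genes). For PT against Ctrl these counts were 1 and 1 (4.32% and 5.12%).

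Markers of blood cell types also differed between the groups. Against Ctrl, 1.99% of all genes passed as higher and 1.29% as lower in PT + HS, and 1.41% and 2.26% in PT. The markers S100a8, S100a9, Ccr2, Cd22, Cd79b and Ms4a1 were also named by the study on these samples, so that their calls are not independent evidence of the direction. Of 10 measured neutrophil markers 6 passed as higher in PT + HS and 4 in PT against Ctrl, and their mean log2 level was 8.06 to 9.31 in PT + HS, 7.60 to 9.00 in PT and 6.73 to 8.17 in Ctrl. S100a8 and S100a9 belong to this list as well. Of 10 monocyte markers, 3 passed as higher and 1 as lower in PT + HS and 3 as higher and 4 as lower in PT, with levels of 7.44 to 7.95 in PT + HS, 6.52 to 7.87 in PT and 6.99 to 7.55 in Ctrl. Of 7 B-cell markers 6 passed as lower in each injured group (6.21 to 6.70 in PT + HS, 5.89 to 7.40 in PT, 7.45 to 8.29 in Ctrl). PT + HS replicate 1 and PT replicate 1, with the highest neutrophil levels in their groups (9.31 and 9.00), also had the highest Cd14 values of their groups. PT replicate 3, with a neutrophil level of 8.77, had a Cd14 value of 5.98. Ctrl replicate 1, with a level of 8.17, had the highest Cd14 value of Ctrl, 5.44. PT + HS replicate 2 and PT replicate 2 had lower neutrophil levels than that animal (8.06 and 7.60) and higher Cd14 values (6.53 and 6.16). The monocyte level was lowest in PT replicate 3. In PT replicates 1, 2 and 3 monocyte levels were 7.87, 7.17 and 6.52 and Cd14 values 7.63, 6.16 and 5.98. In PT + HS the levels were 7.95, 7.75 and 7.44 and Cd14 8.03, 6.53 and 7.62. In Ctrl they were 7.55, 6.99 and 7.21 and Cd14 5.44, 4.94 and 4.12. Tab1 was at 4.01 to 4.02 in PT over neutrophil levels from 7.60 to 9.00. Between PT + HS and PT, 3 of the 10 monocyte markers and 1 of 6 markers of NK cells passed as higher in PT + HS (0.726% of all genes). Platelet markers had mean levels of 9.81 to 9.99 in PT + HS, 9.51 to 9.70 in PT and 9.90 to 10.11 in Ctrl. Against Ctrl, all 7 platelet markers were lower in every PT animal than in any Ctrl animal (5.12% of all genes were), 1 of them past the thresholds. Of the 6 NK-cell markers 4 were lower in this way in PT and 3 passed, with mean levels of 5.59 to 5.92 in PT + HS, 4.99 to 5.61 in PT and 5.98 to 6.17 in Ctrl. The part of these shifts in the members' values was not tested. Eosinophil and basophil markers were low in all groups (3.23 to 3.46). None of 6 T-cell markers and none of 5 markers of red cell precursors passed in any comparison.

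**Figure D4:**
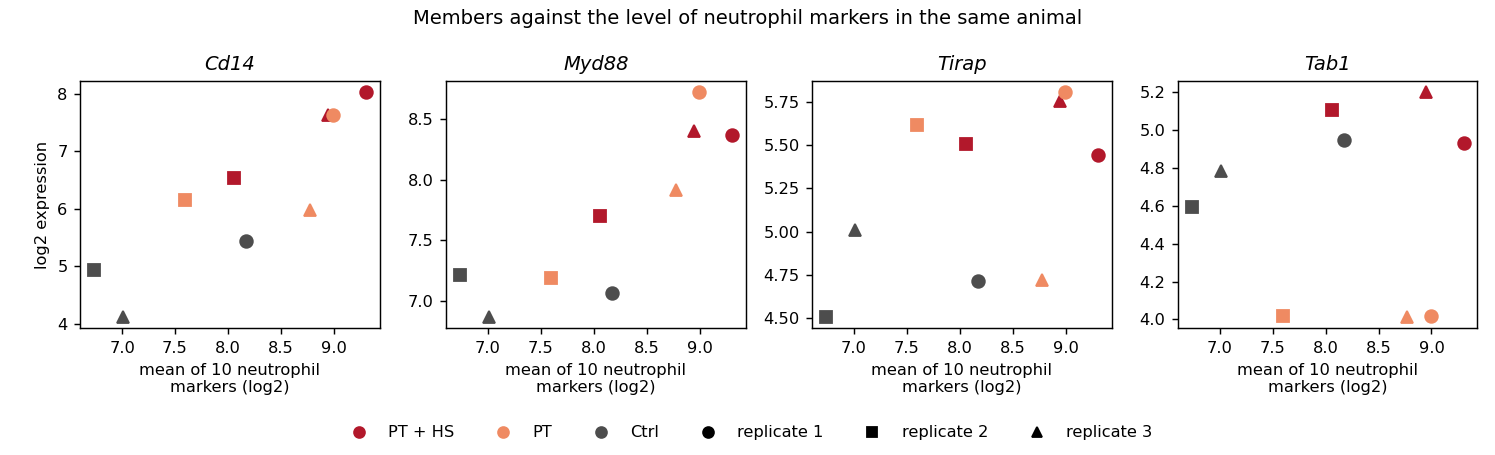
Log2 expression of Cd14, Myd88, Tirap and Tab1 (vertical axes) against the mean log2 level of 10 neutrophil markers (horizontal axis), 1 point per animal, with colours for PT + HS, PT and Ctrl and shapes for replicate numbers. Cd14 and Myd88 are highest in animals with marker levels near 9, though Cd14 is at 5.98 in PT replicate 3 with a level of 8.77. That animal had the lowest mean level of monocyte markers, 6.52, which is not drawn. The 3 PT values of Tab1 lie at 4.01 to 4.02, at marker levels of 7.60 to 9.00.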

How the data were processed

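Expression was measured in blood RNA of 9 mice, 3 each in PT + HS, PT and Ctrl. The authors deposited log2 expression values made by robust multiarray average (background correction, quantile normalization and a summary per probe set) with Expression Console and BRB-ArrayTools. The sources used here give no versions, and the methods name another array than the one whose probe set names were deposited. Of 45101 probe sets, 34958 with exactly 1 symbol were kept, 34754 of them with symbols matched through the Entrez ID, and per gene the probe set with the highest mean was used, without a filter on low values. limma 3.58.1 in R 4.3.3 was fitted to 18194 genes on all 9 arrays, with 1 mean per group, two-sided moderated tests and Benjamini-Hochberg adjustment. Simulated data with known changes were used to test the fit. The labels do not say that mice were separate litters or cages, so p-values measure the spread between these animals only. No scan batch is given.

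The members, the lists and the tests were chosen with earlier results of these data known. Named are all members, up to 4 genes per pathway list past the thresholds, the direct partners Tlr4, Map3k7, Tab2 and Tab3, and the 3 genes most like each member with an SD of at least 0.5 over the arrays. Alternatives were the methods' t-test, the arrays of a comparison alone, a variance trend, array weights, equal medians, repeated quantile normalization, brighter genes only, an average over all probe sets of a gene, every probe set, a replicate block, a 2-fold threshold and leaving out each array. The number of arrays limits the precision.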

Additional observations from a re-analysis of the deposited data

Results flagged for a closer look

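Tab1 differed between the effects of PT + HS and of PT against Ctrl, by 1.06 on the log2 scale, past the thresholds of the study in limma but with an adjusted p of 1.0. The SD of Tab1 over the 3 PT animals was 0.00268, and only 4 of 18194 genes had an SD in PT that small, Tab1 included. In PT + HS 3 genes and in Ctrl 8 genes were at or under that value.

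Traf6 was higher with the probe set 1421376_at, which the comparisons of the 10 genes did not use, by 0.63 in PT + HS against PT and by 0.60 in PT + HS against Ctrl, where the probe set used gave -0.26 and -0.38.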

How the results depend on the processing

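Of 742 alternative values of the 10 genes, 678 kept their sign and their side of the thresholds, 26 lost a call, 9 gained one and 29 changed sign. No gene called in the fit to all arrays changed sign in the comparison in which it was called. The count of genes past the thresholds between PT + HS and PT, 1 of 10, was 2 with array weights, 2 with the replicate block (Cd14 beside Tab1) and 0 with an average over probe sets. The count between PT and Ctrl, 4, was 1 with the methods' t-test, 2 with an average over probe sets and 1 at 2-fold, and over both injured groups, 3, it was 1 at 2-fold. Leaving out 1 array gave 1 to 2 between PT + HS and PT, 2 to 4 between PT + HS and Ctrl, 2 to 3 between PT and Ctrl and 2 to 3 over both injured groups. With array weights, which give PT replicate 1 86.9% of the PT weight, the difference between PT + HS and PT was -0.022 for Cd14, -0.27 for Ly96, -0.43 for Myd88 and -0.13 for Tirap, that between PT and Ctrl was 0.075 for Irak1, 0.013 for Irak3 and 0.0063 for Traf6, and that of Irak3 over both injured groups was 0.036. With an average over its probe sets Traf6 had 0.11 between PT + HS and PT, 0.058 between PT + HS and Ctrl and 0.0050 over both injured groups, as its 2 brighter probe sets point there in opposite directions. Without 1 array the difference between PT + HS and PT ranged from -0.061 to 0.44 for Ly96, from -0.16 to 0.60 for Myd88, from -0.14 to 0.40 for Tirap and from -0.13 to 0.054 for Irak1. Between PT + HS and Ctrl it ranged from -0.081 to 0.16 for Ticam1 and from -0.13 to 0.26 for Irak3, between PT and Ctrl from -0.24 to 0.020 for Traf6, and over both injured groups from -0.20 to 0.070 for Irak2 and from -0.24 to 0.056 for Irak3. An adjusted p under 0.05 was reached with array weights by Cd14 (0.0174), Myd88 (0.0174), Tab1 (0.0216) and Tirap (0.0405) between PT and Ctrl and by Cd14 (0.0172) and Myd88 (0.0313) over both injured groups, with the replicate block by Cd14 over both injured groups (0.0417), and with only the arrays compared by Cd14 between PT + HS and Ctrl (0.0318). The median of the members between PT + HS and PT, 0.20, was -0.20 with array weights, 0.043 without PT replicate 2 and 0.42 without PT replicate 1, and for PT against Ctrl the median of 0.11 turned to -0.057 when PT replicate 1 was left out and to -0.13 over the 8 members among brighter genes. The calls over all genes, and so the shares given beside the members' counts, also moved. Between PT + HS and PT 132 genes were higher and 72 lower, against 364 and 513 with array weights and 252 and 603 without PT replicate 2. Between PT and Ctrl 257 were higher and 411 lower, against 969 and 697 with array weights, 768 and 349 without PT replicate 2 and 496 and 997 without PT replicate 3. The correlations of deviations between animals are too few to decide whether same-numbered animals pair. They were over 0.1 in 3 of 9 same-numbered pairs (highest 0.48) and in 4 of 18 other pairs (highest 0.31). Of the 9 arrays 4 correlated best with their own number. The block gave 264, 693 and 743 calls over all genes in PT + HS against PT, PT + HS against Ctrl and PT against Ctrl, where the fit without it gave 204, 596 and 668. The fit to the arrays compared is that to all 9 arrays for both injured groups and gives no separate value there, and Ly96 and Ticam1 were too dim for the fit to brighter genes.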

Other observations

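Cd14 and Myd88 were the members with an SD of at least 0.5 over the 9 arrays, 1.32 and 0.67. The 3 genes with a pattern closest to Cd14, by the root mean square difference of centred log2 values over the 9 arrays, were Il13ra1 (0.253), a receptor chain of interleukin-13, Fabp5 (0.340), a fatty acid binding protein, and Csf2rb (0.378), the shared receptor chain of granulocyte-macrophage colony-stimulating factor. Those closest to Myd88 were Bmx (0.167), a kinase of the TEC family found in neutrophils, Il1rn (0.168), the interleukin-1 receptor antagonist, and Asb7 (0.184). All 9 arrays entered this measure, and the distance also depends on how far a gene varies at all.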
